A study of Danio rerio with 11 samples.

Results

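Levels of 3 genes were followed across all libraries of a zebrafish brain RNA-seq series. They are ccl34b.1 (ENSDARG00000093608), a chemokine, and cxcr3.2 (ENSDARG00000041041) and cmklr1 (ENSDARG00000090890), which are chemoattractant receptors. The genes were selected by symbol, 3 of the 16536 genes in the deposited table, after earlier results of the same data had shown that they were low in mutant brains. They were chosen by the CPM values described here, so the levels and differences of these 3 genes are a description and carry no test.

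The study compared whole brains of adult zebrafish aged about 8 months in which the receptor for colony-stimulating factor 1, the growth factor receptor of microglia and other macrophages, was mutated in 1 or both of its zebrafish copies, csf1ra and csf1rb. All fish were of a cross of the TLF and AB strains and carried mpeg1-GFP, a reporter of macrophages and microglia. The 11 libraries comprise 2 control (wild type) libraries, 3 of csf1ra-/- brains (single mutant), 3 of csf1ra-/-;b+/- brains (csf1rb-heterozygous mutant) and 3 of csf1ra-/-;b-/- brains (double mutant). The design text counts controls in triplicate, and a further control library was not analysed here. The brains stood in trypsin on ice before freezing, and the labels do not say whether replicates are separate fish, so the spread between libraries may be technical. All 3 mutant genotypes carry the csf1ra mutation on both chromosomes, in every cell of the fish, and no genotype mutated in csf1rb alone was compared.

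Chemokines are small secreted proteins that guide migrating leukocytes through G protein-coupled receptors on the cell surface. ccl34b.1 is a CC chemokine of fish and is known as a marker of a group of zebrafish microglia. cxcr3.2 encodes a CXCR3-type receptor that draws zebrafish macrophages towards Cxcl11-type chemokines, and its paralog cxcr3.3 encodes an atypical receptor that scavenges the same ligands. cmklr1 encodes the receptor for chemerin, an attractant of macrophages and dendritic cells in mammals, for which gpr1 encodes a second receptor.

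Levels are given as CPM, the usual scale for reads of a gene relative to all reads of its library. The libraries held 12.8 to 15.3 M reads, so that 1 CPM stands for 12.3 to 15.7 reads. A library without a read of a gene allows up to 3 reads, or 0.190 to 0.243 CPM. These limits cover counting error only, since several reads may be amplified copies of 1 molecule. The mutated genes had their highest group means in control, although single mutants overlapped control in csf1rb. Levels of the mutated genes do not tell the csf1rb-heterozygous from the double mutants. csf1ra stood at 7.33 to 9.66 CPM in control libraries, 0.952 to 5.10 in single mutants, 0.584 to 0.976 in csf1rb-heterozygous mutants and 0 to 0.602 in double mutants. csf1rb stood at 13.6 to 21.6, 8.42 to 14.4, 1.60 to 3.83 and 1.97 to 2.52 CPM in the same order. csf1ra thus also differed between genotypes with the same csf1ra mutation, and its RNA level is no direct check of the genotype. Neuronal genes were highly expressed, as in brain tissue, and the 15 neuronal marker genes summed to 10850 to 12980 CPM in all libraries.

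ccl34b.1 was lowest in the brains in which both receptor copies were mutated, and each mutant genotype kept a smaller part of the control level than the one before it. Its level was 26.4 and 22.1 CPM in the control libraries and 5.84, 8.50 and 10.2 CPM in single mutants. It was 2.37, 3.70 and 2.59 CPM in csf1rb-heterozygous mutants and 0.825, 0.431 and 1.54 CPM in double mutants. The 4 genotypes did not overlap at any step of this order. The group means were 24.3 ± 3.03 (SD, n = 2), 8.18 ± 2.19 (n = 3), 2.89 ± 0.711 (n = 3) and 0.932 ± 0.562 CPM (n = 3), which rest on 689, 328, 127 and 42 reads. The level of single mutants was thus 2.97-fold, that of csf1rb-heterozygous mutants 8.42-fold and that of double mutants 26.0-fold lower than control. On the log2(CPM + 1) scale the differences from control were -1.49, -2.71 and -3.74, each with an SE of 0.280. Between mutants, the csf1rb-heterozygous brains differed from single mutants by -1.23 and the double mutants from the csf1rb-heterozygous ones by -1.03, each with an SE of 0.250. In whole brain tissue, fewer cells that express a gene and less RNA of it per cell cannot be told apart.

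cxcr3.2, the CXCR3-type receptor, followed the same order at a level that ended near the detection limit. Its level was 4.40 and 3.39 CPM in control libraries and 2.03, 1.61 and 2.84 CPM in single mutants. It was 0.905, 0.418 and 0.648 CPM in csf1rb-heterozygous mutants and 0.317, 0 and 0.0669 CPM in double mutants. No 2 genotypes overlapped, and replicate 2 of the double mutants had 0 reads, which allows up to 0.216 CPM. The group means were 3.90 ± 0.713 (SD, n = 2), 2.16 ± 0.625 (n = 3), 0.657 ± 0.243 (n = 3) and 0.128 ± 0.167 CPM (n = 3). The lowest mean rests on 6 reads in all double mutant libraries, beside 111 reads in control libraries. The means were 1.81-fold, 5.93-fold and 30.4-fold lower than control in single, csf1rb-heterozygous and double mutants. The log2(CPM + 1) differences from control were -0.64, -1.57 and -2.12 (SE 0.250), which understate the fold because the level approached 0. The csf1rb-heterozygous mutants differed from single mutants by -0.92 and the double mutants from the csf1rb-heterozygous mutants by -0.55 on that scale (SE 0.223).

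cmklr1, the chemerin receptor, had its group means in the same order, but its lowest 2 genotypes overlapped. Its level was 4.40 and 4.94 CPM in control libraries and 1.62, 3.22 and 3.71 CPM in single mutants. It was 0.557, 0.697 and 0.778 CPM in csf1rb-heterozygous mutants and 0, 0.144 and 0.803 CPM in double mutants. Double mutant replicate 3, at 0.803 CPM, exceeded every csf1rb-heterozygous library, while double mutant replicate 1 had 0 reads, which allows up to 0.190 CPM. The group means were 4.67 ± 0.378 (SD, n = 2), 2.85 ± 1.09 (n = 3), 0.677 ± 0.112 (n = 3) and 0.316 ± 0.428 CPM (n = 3), from 131, 115, 30 and 14 reads. Of the 14 reads of the double mutants, 12 came from replicate 3. The means were 1.64-fold, 6.89-fold and 14.8-fold lower than control. The log2(CPM + 1) differences from control were -0.60, -1.76 and -2.15 (SE 0.306). The first rests in part on 1 library, since it was -0.34 without single mutant replicate 1. That between csf1rb-heterozygous and single mutants was -1.16 and that between double and csf1rb-heterozygous mutants was -0.40 (SE 0.273), so that the last step was within the spread of the double mutant libraries.

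**Figure D1:**
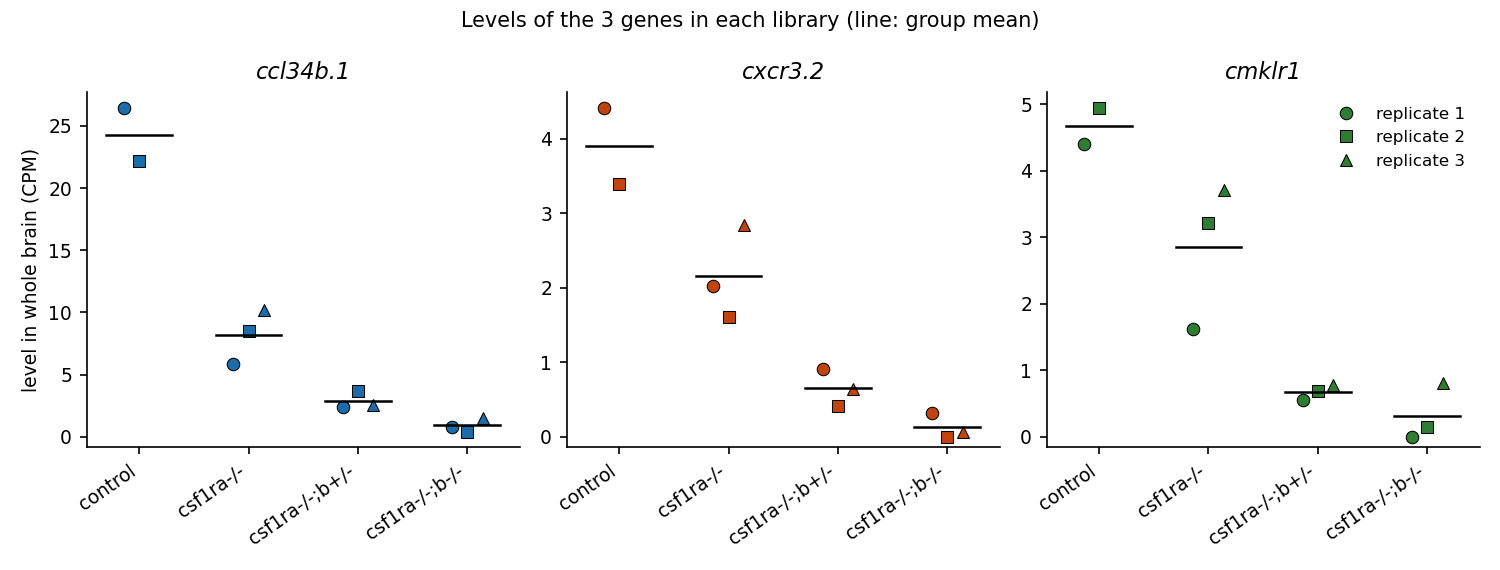
Level of ccl34b.1, cxcr3.2 and cmklr1 in each library in CPM, by genotype, with marker shape for the replicate and a line for the group mean; the vertical axes start near 0 and differ between genes. Control libraries lie above all mutant libraries for each gene, and only cmklr1 shows a double mutant library (0.803 CPM) above the csf1rb-heterozygous ones.

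In all 9 pairs of a gene and a mutant genotype, the mutant libraries lay below both control libraries without overlap. With so few libraries this is common. Of all genes, 13.7% did so in single mutants, 16.6% in csf1rb-heterozygous mutants and 16.6% in double mutants, and nothing is read from the count for genes chosen on these contrasts. All 3 genes were lower in every csf1rb-heterozygous than in every single mutant library, which held for 6.46% of all genes. For the step from csf1rb-heterozygous to double mutants it held for ccl34b.1 and cxcr3.2, beside 4.83% of all genes. The falling order of the 4 genotypes without overlap at any step occurred in 9 genes, or 0.0544% of the table, and ccl34b.1 and cxcr3.2 are among them. Others are spi1a, a transcription factor of myeloid cells, c1qb, a subunit of complement C1q, itgae.1, an integrin subunit, and fcer1gl, a signalling adaptor of Fc receptors. lcp2a, a signalling adaptor of blood cells, and the protocadherin gene pcdh1gc5 are also among the 9. ccl34b.1, cxcr3.2 and cmklr1 were chosen on their levels over all 4 genotypes. Nothing is therefore read from their counts between mutants or from their place in the falling order.

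Ranked from the lowest log2(CPM + 1) difference among 16536 genes, ccl34b.1 stood at place 49 in single, 12 in csf1rb-heterozygous and 5 in double mutants. cxcr3.2 stood at places 411, 84 and 52 and cmklr1 at places 504, 58 and 48 in the same order. Because the genes were chosen on these values, nothing is read from these places. The scale understates the change of genes with few reads, so the order of the 3 genes depends on it. All comparisons with control share the same 2 control libraries, so their values are set side by side only. The authors' deposited table gives log2 fold changes from control of -1.57, -3.07 and -4.68 for ccl34b.1. The authors' deposited table has -0.85, -2.56 and -4.79 for cxcr3.2, and -0.70, -2.77 and -3.85 for cmklr1. These are larger in size than the log2(CPM + 1) differences, most of all for cxcr3.2, whose double mutant level was nearest 0. edgeR on the recovered reads gave -4.68, -4.78 and -3.85 in double mutants for ccl34b.1, cxcr3.2 and cmklr1.

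**Figure D2:**
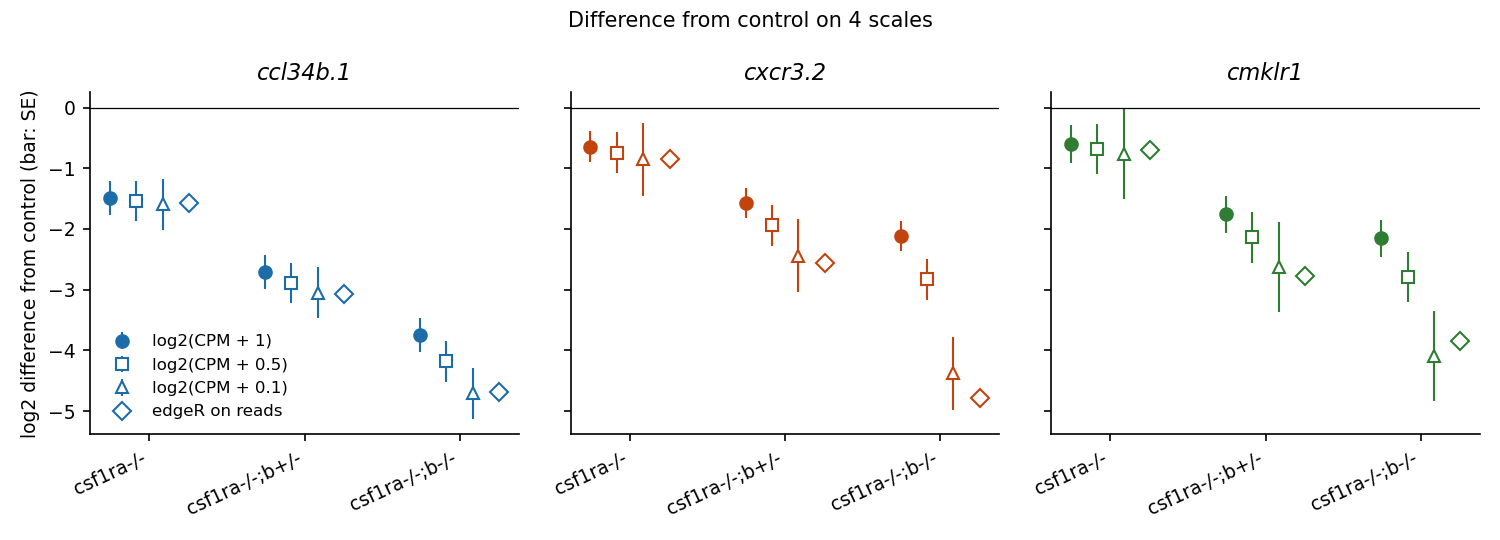
Log2 difference from control of each gene in the 3 mutant genotypes on the log2(CPM + 1) scale (filled) and on 3 other scales (open), with the SE as a bar where the fit gives one. All points lie below 0; the scales spread most in double mutants, from -2.12 to -4.78 for cxcr3.2.

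The 3 genes shared their highest library in single mutants, but not all of them did in the other genotypes. Single mutant replicate 3 was the highest of its group for each of them, at 42.0% of the control mean for ccl34b.1, 72.8% for cxcr3.2 and 79.5% for cmklr1. This library was also the highest single mutant in csf1ra, at 5.10 CPM, and in the median of 34 other microglia and macrophage marker genes, at 72.1% of control. Single mutant replicates 1 and 2 had list medians of 49.6% and 46.2%. Among double mutants, replicate 3 was highest for ccl34b.1, at 6.34% of control, and for cmklr1, at 17.2%, but not for cxcr3.2, which had 1.72% there and 8.14% in replicate 1. The median of the microglia and macrophage genes was 20.7% in double mutant replicate 3, 12.6% in replicate 1 and 10.5% in replicate 2. Among csf1rb-heterozygous mutants, ccl34b.1 was highest in replicate 2, at 15.2%, where cxcr3.2 was lowest, at 10.7%. There cxcr3.2 was highest in replicate 1, at 23.2%, and cmklr1 in replicate 3, at 16.7%, where the list median was lowest, at 28.3%. In control, the list median was 129% and 71.4% in replicates 1 and 2, while cmklr1 stood at 94.3% and 106%.

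Microglia and macrophage markers moved with the 3 genes. Of 34 measured genes of that list, csf1ra and csf1rb included, 1 fell in single, 14 fell in csf1rb-heterozygous and 25 fell in double mutants at an adjusted p under 0.05 (limma), and 0 rose, where 0.472%, 0.671% and 1.16% of all genes were called. edgeR called 0, 11 and 26 of them, and 17, 26 and 30 had an unadjusted p under 0.05 with limma, a threshold for which no share of all genes is given. The median log2(CPM + 1) difference of the list was -0.64, -1.26 and -2.23, beside 0.01, 0.00 and 0.01 over all genes. Their summed level was 874 and 1416 CPM in control, 649 to 901 in single, 477 to 489 in csf1rb-heterozygous and 353 to 491 CPM in double mutant libraries. The list was chosen with earlier results of these data known and holds the mutated genes, so its counts and medians are a description. The part of these markers in the levels of ccl34b.1, cxcr3.2 and cmklr1 was not tested.

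As a share of the control mean, ccl34b.1 kept 33.7%, 11.9% and 3.84% in single, csf1rb-heterozygous and double mutants. cxcr3.2 kept 55.4%, 16.9% and 3.29%, and cmklr1 kept 61.1%, 14.5% and 6.76%. The medians of the 34 microglia and macrophage genes were 57.0%, 34.2% and 14.6%, so both receptors lay near the list's median in single mutants and below it in the other genotypes. In double mutants, 6 of the 34 list genes had a smaller share than ccl34b.1, 5 a smaller share than cxcr3.2 and 10 a smaller share than cmklr1. Because the 3 genes were chosen for being low in mutants, nothing is read from their place in the list. The double mutant shares of cxcr3.2 and cmklr1 also rest on 6 and 14 reads. The list ran from itgae.1 at 1.47% to hexb, a lysosomal enzyme, at 118%.

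**Figure D3:**
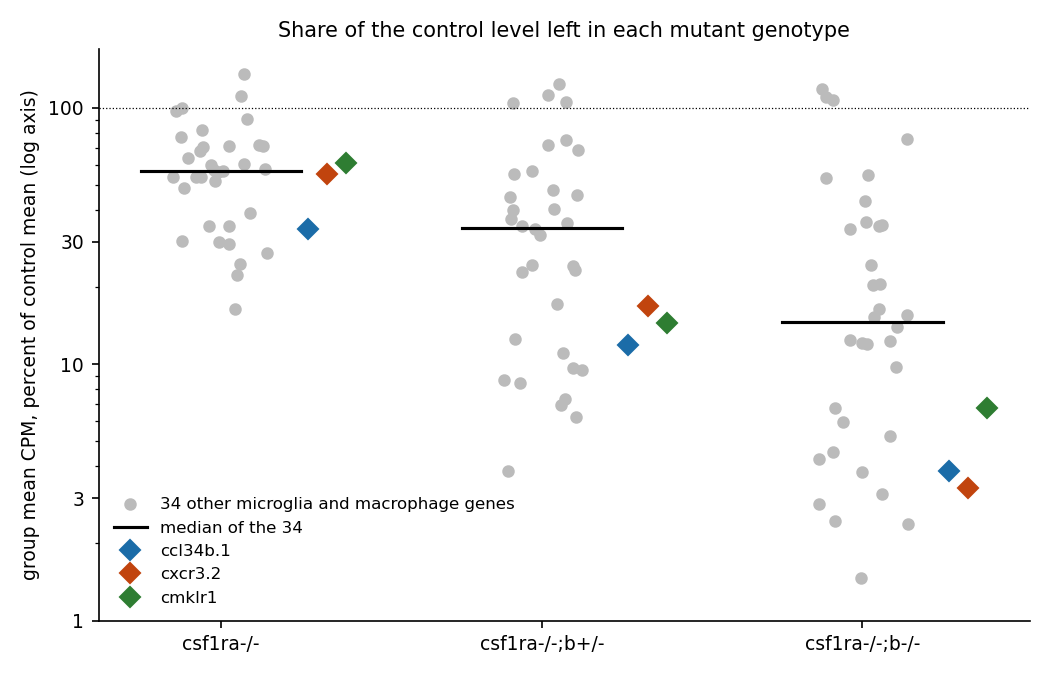
Group mean CPM as a percent of the control mean (log axis) in the 3 mutant genotypes for ccl34b.1, cxcr3.2 and cmklr1 (diamonds) and 34 microglia and macrophage genes (grey, with their median as a line). The 3 genes, chosen for being low, lie at 3.29% to 6.76% in double mutants, where the list's median is 14.6%.

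Markers of other cell types are given beside the 3 genes, with no test between the lists. The 7 measured neutrophil genes summed to 18.1 and 18.9 CPM in control and 16.0 to 19.7 CPM in double mutant libraries, and to 21.7 to 26.2 and 17.7 to 23.5 CPM in single and csf1rb-heterozygous mutants. Their median differences were 0.24, 0.35 and 0.09 in single, csf1rb-heterozygous and double mutants, and 3, 2 and 3 of the 7 were below 0. Among them mpx stood at 1.97 to 2.01 CPM in control and 2.69 to 3.00 in single mutants. lyz stood at 0.154 to 0.657 CPM in control and 1.87 to 3.93 in single mutants. The neutrophil sum thus rests mostly on other genes of its list and is no measure of neutrophils. Of the T and NK cell list, 4 of 18 genes were measured. They summed to 201 to 238 CPM in control and 207 to 230 CPM in double mutants. Their median log2(CPM + 1) differences were 0.09, -0.20 and -0.25 in single, csf1rb-heterozygous and double mutants. Among them zap70 stood at 1.93 to 2.63 CPM in control, 1.83 to 3.93 in single and 1.11 to 1.67 in csf1rb-heterozygous mutants. In double mutants zap70 stood at 0.508 to 2.16 CPM. The sum thus rests mostly on other genes of the list and is no measure of T and NK cells. The 5 measured genes of the dendritic cell list summed to 390 and 455 CPM in control and 342 to 382 CPM in single mutants. They summed to 360 to 424 CPM in csf1rb-heterozygous and 368 to 425 CPM in double mutants. Which brain cells express these genes was not tested, so the sum is no measure of dendritic cells. All 5 genes of this list were below 0 in double mutants, with a median difference of -0.40, beside -0.19 and -0.04 in single and csf1rb-heterozygous mutants. The T cell genes lck, cd4-1 and cd8a, relevant because CXCR3 marks T cells in mammals, are not among the listed genes, nor is any of 8 B cell genes. No gene of the neutrophil, T and NK cell or dendritic cell lists passed limma's test in any mutant against control, and edgeR called 0 as well. At most 3 of a list had an unadjusted p under 0.05, a threshold for which no share of all genes is given. The red blood cell genes summed to 132 and 206 CPM in control and 315 to 619 CPM in single, 161 to 297 in csf1rb-heterozygous and 218 to 367 CPM in double mutants. Their median log2(CPM + 1) differences were 1.31, -0.10 and -0.10 in the 3 mutant genotypes in turn. Of the 7 measured genes, 0, 4 and 4 were below 0, so the sums do not stand for the whole list. The 12 measured oligodendrocyte genes summed to 10007 and 11496 CPM in control and lay lower in every mutant library, at 7492 to 8624 in single, 8152 to 9153 in csf1rb-heterozygous and 6742 to 8512 CPM in double mutants. That sum rests mostly on mbpa, which encodes myelin basic protein and was picked out after its values were seen. mbpa stood at 6456 to 7624 CPM in control, 4481 to 4921 in single, 4418 to 4878 in csf1rb-heterozygous and 3625 to 4495 CPM in double mutants. In double mutants mbpa fell by 0.75 on the log2(CPM + 1) scale (SE 0.130, adjusted p = 0.0222 by limma and 0.0153 by edgeR). The list's median differences were -0.09, 0.03 and -0.10 in single, csf1rb-heterozygous and double mutants. The part of blood, myelin or other leukocytes in the levels of the 3 genes was not tested.

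The 5 genes most like ccl34b.1 over the 11 libraries, by Pearson's r of log2(CPM + 1) among 15931 other genes of mean CPM 2 or more, were led by cd74a, which encodes the MHC class II invariant chain (r = 0.967). lgals3bpb, a galectin-binding protein gene (0.965), pcdh1gc5 (0.962), spi1a (0.954) and the lipid phosphatase gene inpp5d (0.953) followed. For cxcr3.2 they were the mannose receptor gene mrc1b (0.971), cd74a (0.969), inpp5d (0.967), apbb1ip, an adaptor in integrin activation (0.966), and the granulin gene grna (0.960). For cmklr1 they were ccl34b.1 (0.962), inpp5d (0.938), the endocytic trafficking gene ehd4 (0.931), zgc:123010 (0.928) and cd74a (0.928). cd74a and inpp5d thus stood among the first 5 of all 3 genes. cxcr3.2 and cmklr1 themselves had a mean CPM below 2, so they could not appear in these lists, whereas ccl34b.1 could. With cmklr1 admitted, inpp5d would not be among the first 5 of ccl34b.1. The 3 genes correlated with each other at 0.952 (ccl34b.1 and cxcr3.2), 0.962 (ccl34b.1 and cmklr1) and 0.912 (cxcr3.2 and cmklr1). These values share the libraries, their depth and the differences between genotype groups, and are a description.

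A paralog of cxcr3.2 and a second chemerin receptor gene were measured. cxcr3.3, the scavenging paralog of cxcr3.2, stood at 2.63 and 1.70 CPM in control and 1.70, 2.12 and 2.91 CPM in single mutants. It stood at 1.04, 0.627 and 1.49 CPM in csf1rb-heterozygous and 1.08, 1.01 and 2.01 CPM in double mutants, so that control and double mutant libraries overlapped. All csf1rb-heterozygous libraries lay below both control libraries, which held for 16.6% of all genes. Its log2(CPM + 1) difference from control was 0.04 in single (adjusted p = 0.972, limma), -0.63 in csf1rb-heterozygous (adjusted p = 0.309, unadjusted 0.0453, limma) and -0.43 in double mutants (adjusted p = 0.486, limma), each with an SE of 0.280. From single to csf1rb-heterozygous mutants it was -0.67 (SE 0.250, adjusted p = 0.64, limma). gpr1, the second chemerin receptor gene, had means of 7.56 ± 1.31 (n = 2), 7.65 ± 1.81, 7.25 ± 0.952 and 7.55 ± 2.28 CPM (n = 3 each) from control to double mutants. Its difference in double mutants was -0.03 (SE 0.252, adjusted p = 0.969, limma). Whether cxcr3.2 differed from cxcr3.3, or cmklr1 from gpr1, in its response was not tested, because cxcr3.2 and cmklr1 were chosen on theirs.

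The ligands of the receptors were not measured. No Cxcl11-type chemokine gene, no rarres2, the chemerin gene, no cxcr3.1 and no further ccl34 gene is among the listed genes. Each listed gene exceeds 1 CPM in at least 3 libraries. ccl34b.1 did so in 9 libraries, while cxcr3.2 and cmklr1 did so in 5 each, the 2 control and 3 single mutant libraries. They are therefore in the table through the genotypes in which they were high, and a gene low in all brains would not be.

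Beside the 3 genes, 23 of 139 listed chemokine ligand and chemoattractant receptor genes were measured. None rose or fell against control at an adjusted p under 0.05 (limma) in any of the 3 mutant genotypes, where 0.472%, 0.671% and 1.16% of all genes were called. Of the 23, 3, 5 and 6 had an unadjusted p under 0.05 in single, csf1rb-heterozygous and double mutants. The share of all genes under that unadjusted threshold is not given here, so nothing is read from these counts. edgeR called 0, 0 and 1, the last being the chemokine gene ccl33.3 in double mutants (adjusted p = 0.0399). The medians of the 23 log2(CPM + 1) differences were -0.11, -0.22 and -0.28, and 13, 20 and 22 of the 23 were below 0, beside medians over all genes of 0.01, 0.00 and 0.01. Their range in double mutants on the log2(CPM + 1) scale was -1.41 to 0.08, above the -2.12 to -3.74 of the 3 genes chosen for being low. This scale understates the change of genes with few reads, and the gap depends on it. As a share of the control mean, ccl33.3 kept 7.91% in double mutants, from 4 reads, beside 6.76% for cmklr1. edgeR gave -3.53 for ccl33.3 and -3.85 for cmklr1.

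**Figure D4:**
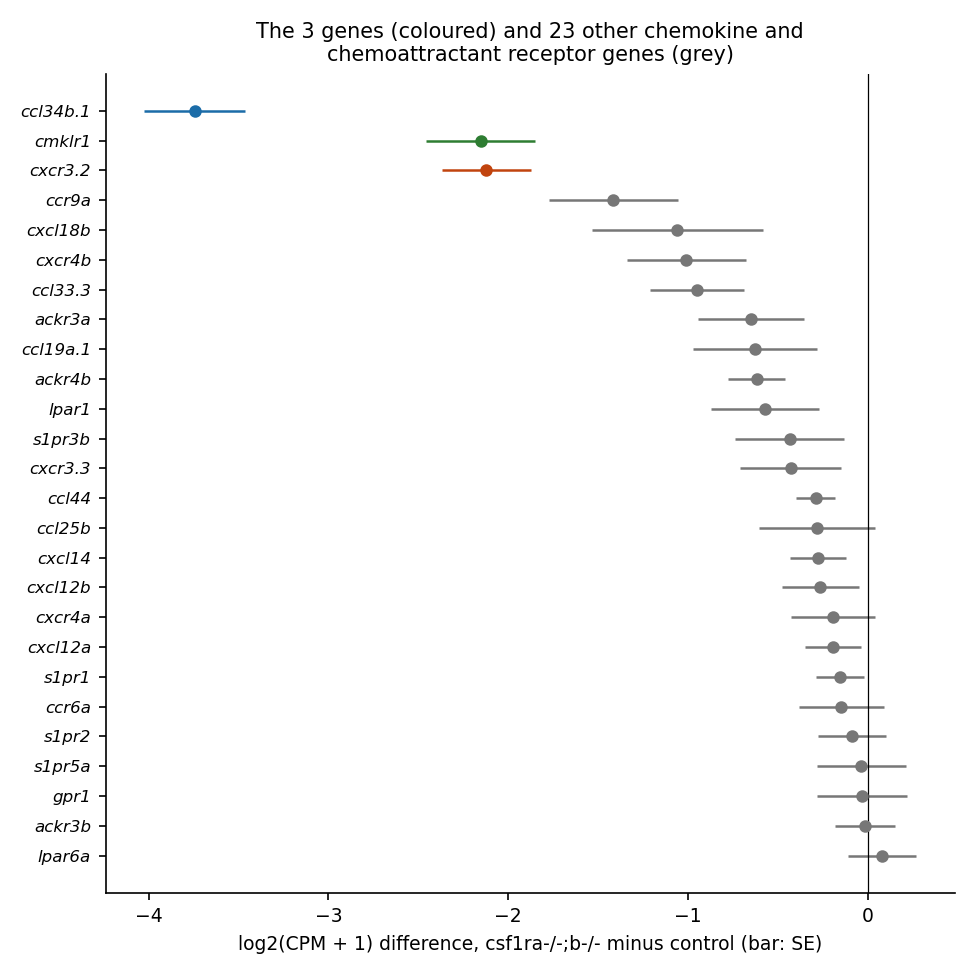
Log2(CPM + 1) difference of double mutants from control, with its SE, for ccl34b.1, cxcr3.2 and cmklr1 (coloured) and the 23 other measured chemokine and chemoattractant receptor genes (grey). The coloured genes, chosen for being low, lie at -3.74, -2.12 and -2.15, and the grey ones between -1.41 and 0.08. This scale understates the change of genes with few reads, ccl33.3 among them.

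Between mutant genotypes, 2 of the 23 genes fell from single to double mutants (limma), a comparison in which 0.943% of all genes were called. Both were picked out after their values were seen. ccl33.3, another CC chemokine gene, stood at 1.38 and 0.849 CPM in control and 2.11, 2.27 and 3.57 CPM in single mutants. It stood at 2.51, 1.67 and 1.30 CPM in csf1rb-heterozygous and 0.0635, 0 and 0.201 CPM in double mutants, the last from 4 reads in all. The double mutants lay below all other libraries, but single and csf1rb-heterozygous mutants did not lie below control as they did for ccl34b.1. The single to double difference of ccl33.3 was -1.73 on the log2(CPM + 1) scale (SE 0.235, adjusted p = 0.0058, limma; 0.00509, edgeR), and it held in all 6 fits that left out 1 library, with a highest adjusted p of 0.034. ccr9a, a chemokine receptor of lymphocytes in mammals, had means of 4.61 ± 2.12 CPM (n = 3) in single and 0.851 ± 0.771 CPM (n = 3) in double mutants. Its difference was -1.61 (SE 0.320, adjusted p = 0.0379, limma), which edgeR did not call (adjusted p = 0.0633) and which held in 1 of 6 fits without 1 library, with an adjusted p of up to 0.152 without double mutant replicate 1. From single to csf1rb-heterozygous mutants and from there to double mutants, limma called 0 of the 23, where 0.187% and 0.0847% of all genes were called. In these steps 3 and 3 had an unadjusted p under 0.05, a threshold for which no share of all genes is given. edgeR called 0 and 1, ccl33.3 in the second step (adjusted p = 0.0369).

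Of 31 genes that act downstream of chemoattractant receptors in leukocytes, 17 were measured. 1 of them, wasb, which encodes an actin regulator of blood cells, fell in double mutants, where 1.16% of all genes were called, from 6.18 ± 2.51 (n = 2) to 1.42 ± 0.420 CPM (n = 3). Its log2(CPM + 1) difference was -1.54 (SE 0.290, adjusted p = 0.0308, limma; 0.0224, edgeR). Without 1 library it passed in 1 of 5 fits, and its adjusted p reached 0.202 without control replicate 1. None of the 17 passed in single or csf1rb-heterozygous mutants by limma or edgeR. An unadjusted p under 0.05 (limma) was found for 2 and 5 of the 17 there, and for 7 in double mutants, wasb included. No share of all genes under that unadjusted threshold is given, so nothing is read from these counts. The median difference of the 17 was -0.16, -0.28 and -0.27 in the 3 mutant genotypes, beside 0.01, 0.00 and 0.01 over all genes.

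Few genes beside the 3 on their chromosomes were measured. In RefSeq's order of genes, from a later assembly than that of the reads, none of the 5 nearest genes on each side of ccl34b.1 is among the listed genes, 2 of 10 around cxcr3.2 are, and 3 of 10 around cmklr1. The differences of these 5 genes in double mutants ran from -0.60 to 0.21, with a lowest adjusted p of 0.155 (limma). In single and csf1rb-heterozygous mutants they ran from -0.63 to 0.50, with a lowest adjusted p of 0.0636 (limma), and the highest was sart3 beside cmklr1, at 0.50 and 0.49. In that assembly none of ccl34b.1, cxcr3.2, cmklr1, csf1ra and csf1rb shares a chromosome with another of them. Close copies lie beside all 3 genes, ccl34b.4 and ccl34b.8 near ccl34b.1, cxcr3.1 and cxcr3.3 near cxcr3.2, and cmklr1l1 and cmklrl2 near cmklr1. How reads of 50 nucleotides that match several copies were counted is not given in the sources used here, so the levels of the 3 genes are uncertain to that extent.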

How the data were processed

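CPM of 16536 genes in 11 libraries were deposited, a signal that the authors had scaled with 1 normalization factor for each library, per the file headers and the values. HISAT2, edgeR and genome build GRCz10 are named in the submitters' processing notes, whereas versions, the counting program and its use of strand or of reads with several matches are not given there or in any label. All values were whole multiples of 1 read within 0.001 reads, so whole reads were recovered, 12.8 to 15.3 M per library, and edgeR's TMM factors computed from them equalled the deposited ones (0.963 to 1.04). The authors' deposited log2 fold changes are quoted as such. The deposited log2 CPM, adjusted p-values and rank columns were not used for any result.

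Differences are from limma 3.58.1 (R 4.3.3) on log2(CPM + 1) values, allowing for a trend of variance with mean, in a single fit of the 4 genotypes over all genes, with Benjamini-Hochberg adjustment over 16536 genes and a threshold of 0.05. This scale understates the change of genes with few reads. The quasi-likelihood test of edgeR 4.0.16 on those reads was an alternative, as were pseudocounts of 0.5 and 0.1, a minimum mean CPM of 2, the plain column total, fits of only the groups compared, replicate blocks and leaving out each library. The same scripts were tested on simulated data. The 3 genes, the gene lists and the rule for named genes were chosen with earlier results of these data known. The rule took the 3 genes, measured genes of the CXCR3, chemerin and ccl34 families, called genes of the other chemotaxis lists, the 5 genes most like each of the 3, and csf1ra and csf1rb. RefSeq's GRCz12tu annotation, of another build, was used only for neighbours and shared chromosomes. Replicate numbers are shared between groups, and their deviations from the group means correlated above 0.1 in all 3 same-numbered pairs only between single and csf1rb-heterozygous mutants (0.323 to 0.651). Over all groups, same-numbered pairs by title ran from 0.0299 to 0.651, with a median of 0.176. Tests between mutants leave the replicate numbers out, apart from the fits named as blocked. p-values measure the spread between these libraries, which may be technical.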

Additional observations from a re-analysis of the deposited data

How the results depend on the processing

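The differences of ccl34b.1, cxcr3.2 and cmklr1 from control were below 0 in all 111 alternative values, of which 94 moved by less than 1 SD between replicates. The other 17 were more negative, in genotypes where few reads remained. With a pseudocount of 0.5, the csf1rb-heterozygous difference was -1.94 for cxcr3.2 and -2.14 for cmklr1, and the double mutant difference -4.18 for ccl34b.1, -2.83 for cxcr3.2 and -2.79 for cmklr1. With a pseudocount of 0.1 the values were -3.05, -2.44 and -2.63 in csf1rb-heterozygous and -4.71, -4.38 and -4.09 in double mutants, for ccl34b.1, cxcr3.2 and cmklr1 in turn. edgeR gave -3.07, -2.56 and -2.77 in csf1rb-heterozygous and -4.68, -4.78 and -3.85 in double mutants. A minimum mean CPM of 2 left no value for cxcr3.2 and cmklr1. The count of 0 called among the 23 other chemokine and chemoattractant genes became 1 in double mutants with a pseudocount of 0.1 (ccl33.3, adjusted p = 0.0356, limma) and with edgeR (ccl33.3, adjusted p = 0.0399). Leaving out 1 library gave 0 to 1 in csf1rb-heterozygous and 0 to 1 in double mutants. The calls were cxcl18b without control replicate 2 (adjusted p = 0.0319 and 0.0304, limma), as control replicate 1 holds 12.6 and replicate 2 holds 2.31 CPM of it, and ccr9a without double mutant replicate 3 (adjusted p = 0.0444, limma). With a replicate block by title number, or by description number, which differ for control replicate 2, the double mutant count was 1, ccr9a (adjusted p = 0.012 and 0.0286, limma), and ccl34b.1 differed from control by -3.85 and -3.74. Same-numbered libraries correlated in their deviations from the group means at 0.0299 to 0.651 by title (median 0.176) and from -0.00686 by description, those of different numbers at -0.483 to 0.19 (median -0.064). By title, the best match in another genotype bore the same number in 25 of 33 cases. These cases are not independent, since each pair of libraries enters from both sides. Deviations from a group mean also sum to 0 within the group, so a positive match brings negative ones with it. Whether same-numbered libraries share a source is not stated in the labels and was not tested. Between single and csf1rb-heterozygous mutants, where all pairs exceeded 0.1, limma called 0 of the 23 with the block as without it. Both genotypes hold the same replicate numbers, so the block cannot change the differences of the 3 genes, only their SE. For ccl34b.1 the SE was 0.235 with the block by title, beside 0.250 without it. From single to double mutants the block added cxcr4b to ccl33.3 and ccr9a. Calls over all 16536 genes rose as well in this comparison, from 156 without the block to 294 by title and 367 by description number. Depth limits cxcr3.2 and cmklr1 in double mutants to 6 and 14 reads, and the number of control libraries, 2, limits every comparison with control.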

Other observations

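ackr4b, which encodes a scavenging receptor of CC chemokines, was picked out after its values were seen. It stood at 16.43 and 16.36 CPM in control, 14.4, 12.01 and 10.9 CPM in single, 10.3, 10.0 and 10.2 CPM in csf1rb-heterozygous and 11.11, 8.70 and 11.4 CPM in double mutants. Its log2(CPM + 1) difference was -0.64 in csf1rb-heterozygous (adjusted p = 0.0975, limma) and -0.62 in double mutants (adjusted p = 0.0917, limma). All 3 libraries of each lay below control, which held for 16.6% of all genes in csf1rb-heterozygous and 16.6% in double mutants. The difference passed in none of its 13 alternatives, whose adjusted p ran from 0.0872 to 0.361 in double mutants (limma or edgeR).

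cxcr4b, the receptor of Cxcl12 chemokines, was highest in single mutant replicate 3, at 11.07 CPM beside 4.91 to 5.03 CPM in replicates 1 and 2, the library that was also highest of its group for ccl34b.1, cxcr3.2 and cmklr1. ccr9a shared this, with 7.06 CPM there and 3.37 and 3.41 CPM in the other single mutants.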
